A study of Mus musculus with 2 samples.

Results

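The genes Hopx, Sox2, Sox9, Id4, Id3, Hes5, Gfap, Nes and Vim are widely used to recognize radial glia-like cells (RGLs), the neural stem cells of the adult dentate gyrus (DG). They were chosen by name and are 9 of the 15474 genes in the filtered count table. They were followed through 8 cell identities annotated by the authors in single cells of the DG of C57BL/6J mice, 4 to 5 weeks old. The cells were sequenced by SORT-seq, a plate method in which each cell is sorted into its own well of barcoded primers. The primers also carry a random tag, the unique molecular identifier (UMI), so that each captured polyadenylated transcript is counted once. Fresh cells, from a pool of animals, were sorted directly after dissociation with a dead cell stain. MeOH-fixed cells, from a pool of 4 mice, were fixed in methanol, stored for 3 weeks at low temperature, rehydrated and sorted without that stain. Each condition is 1 library of 384 barcodes, and 64 fresh and 132 MeOH-fixed cells passed the filters. Depth after filtering was 534122 UMIs for the fresh library (median 6318 per cell) and 729018 for the MeOH-fixed library (median 3452). Because each condition is a single library, differences between conditions could not be checked against replicates and are given without tests. The 95% intervals are exact (Poisson for counts, Clopper-Pearson for shares) and take in counting error alone.

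RGLs divide rarely and give rise to neuronal intermediate progenitor cells (nIPCs), which become neuroblasts and then granule neurons. RGLs resemble astrocytes in shape and in most of the genes they express, so that both usually fall into the same cluster when few cells are sequenced, as here. The transcription factors Sox2 and Sox9 keep neural precursors in an undifferentiated, glial state, and Hopx is a homeodomain protein without DNA binding of its own that marks quiescent stem cells. Id3 and Id4 lack a DNA binding domain and block proneural basic helix-loop-helix factors, downstream of BMP signals. Hes5 is a repressor that is switched on by Notch through its DNA binding partner RBPJ. Gfap, Nes and Vim encode the intermediate filament proteins of astrocytes and precursors, of which nestin is also made by dividing and newly formed vessel cells, and vimentin by vessel cells and many others.

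In the GENCODE vM21 annotation of GRCm38, Hopx lies at chr5:77086988-77115121 on the minus strand, Sox2 at chr3:34650405-34652461, Sox9 at chr11:112782224-112787760, Id4 at chr13:48261228-48266026, Id3 at chr4:136143497-136145755, Hes5 at chr4:154960923-154962371, Nes at chr3:87971078-87980451 and Vim at chr2:13573927-13582826, all on the plus strand, and Gfap at chr11:102887336-102900912 on the minus strand. Sox2 lies within Sox2ot, a noncoding gene on the same strand, so that reads of the shared stretch cannot be told apart by position. Hopx, Id4, Hes5 and Gfap overlap noncoding genes on the other strand.

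The upstream windows of 8 of these genes (all but Sox9) were in the RefSeq promoter table of GRCm38.p6, Hopx with 2 windows, and the 250 bases before each start were searched on both strands. The starts are those of this table and not of the positions above. The windows of Gfap, Vim and Id3 and 1 window of Hopx lie inside the genes as positioned there. The core letters of the RBPJ site, TGGGAA or its reverse complement, were found for 3 of the 8 genes and in 21.6% of all 32851 windows. The 3 windows are shown because Notch acts through RBPJ and because Hes5, a Notch target, Id4 and Gfap were all detected in astrocytes and RGLs. Capitals mark the RBPJ letters.
Hes5, chr4:154960673-154960922, plus strand: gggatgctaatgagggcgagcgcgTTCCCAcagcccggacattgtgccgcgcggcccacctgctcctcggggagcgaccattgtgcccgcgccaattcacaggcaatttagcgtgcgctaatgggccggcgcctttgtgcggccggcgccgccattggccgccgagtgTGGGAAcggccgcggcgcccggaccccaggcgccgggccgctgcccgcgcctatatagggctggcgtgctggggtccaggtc
Id4, chr13:48260866-48261115, plus strand: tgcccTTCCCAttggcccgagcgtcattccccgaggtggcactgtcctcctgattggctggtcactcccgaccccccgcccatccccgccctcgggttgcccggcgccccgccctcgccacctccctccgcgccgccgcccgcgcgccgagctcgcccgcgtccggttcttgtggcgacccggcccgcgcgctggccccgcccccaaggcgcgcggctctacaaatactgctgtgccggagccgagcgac
Gfap, chr11:102897201-102897450, minus strand: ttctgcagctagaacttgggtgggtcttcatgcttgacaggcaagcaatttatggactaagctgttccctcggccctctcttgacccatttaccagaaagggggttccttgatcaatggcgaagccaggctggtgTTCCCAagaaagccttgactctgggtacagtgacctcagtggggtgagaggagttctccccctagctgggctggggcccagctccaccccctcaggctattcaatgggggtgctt
Hes5 had 2 matches, which begin 226 and 82 bases before its start, on opposite strands. Id4 had 1 match 245 bases before its start, which shares 1 base with a CCAAT box read on the same strand, and Gfap had 1 match 115 bases before its start. The SOX letters ACAAAG were found for Sox2 (206 bases before the start) and Hes5 (118 bases) and in 16.5% of all windows. CCAAT was found for 5 of the 8 genes and in 33.85% of windows, the E-box CANNTG for 2 and in 66.2%, TATAAA for Vim alone among the 8 and in 12.4%, and the STAT letters TTCNNNGAA for none and in 7.02%. A match describes the letters of a window and does not show that a factor binds there.

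The 9 genes were counted mainly in the cells annotated as astrocytes and RGLs. These 47 cells, 18 fresh and 29 MeOH-fixed, were 24.0% of the filtered cells and held 15.1% of all UMIs, but 819 of the 1109 UMIs of the 9 genes (73.9%, interval 71.2 to 76.4%). The authors named this identity with the help of Hopx, Sox2, Sox9 and Id4, so that their contrast with other identities is a description. The markers S100b, Aldoc, Aqp4 and Slc1a3, which are not among the 9 genes, were checked in the identity, although S100b and Aldoc also served the authors to name it. Every cell held at least 1 of the 4, with Slc1a3 in all 47 cells, Aldoc in 46, Aqp4 in 36 and S100b in 28. The share of the 9 genes was 80.0% in the fresh and 66.2% in the MeOH-fixed library. It differed widely among the genes. With both libraries together Gfap (91.8%), Hopx (89.5%), Id4 (88.5%) and Sox9 (82.5%) were counted mostly there, as in each library, where Gfap gave 98.0% in fresh and 79.2% in MeOH-fixed cells, Hopx 95.8% and 82.3%, Id4 94.7% and 80.9%, and Sox9 84.3% and 80.0%. Id3 gave 71.4% in fresh and 72.5% in MeOH-fixed cells. Sox2 gave 63.1% and 46.2%, Hes5 81.2% and 50%, and Vim 41.0% and 10.4%. Nes gave none of its 22 UMIs there (exact interval up to 15.4%).

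**Figure D1:**
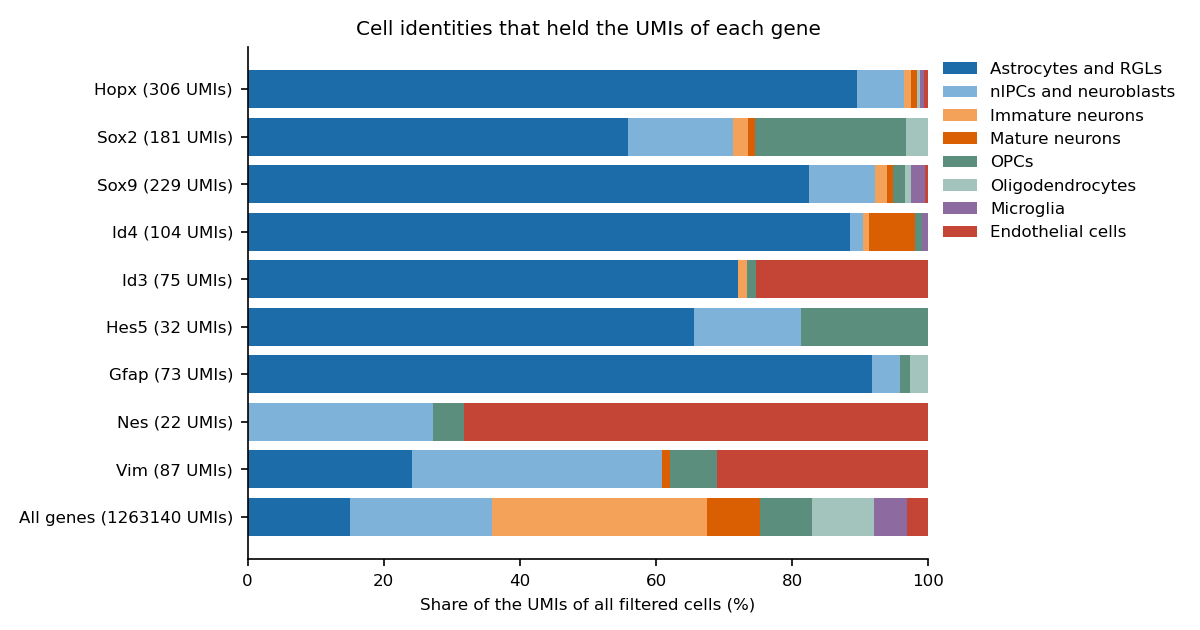
Share of the UMIs of each gene (%, both libraries together) that fell in each of the 8 annotated cell identities of the 196 filtered cells, with the same for all genes in the lowest bar. Astrocytes and RGLs held 15.1% of all UMIs but 91.8% of those of Gfap and none of those of Nes.

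Hopx, the factor of quiescent stem cells, was counted with 158 UMIs in fresh astrocytes and RGLs, or 1426 CPM (counts per 1000000 transcripts of the identity, interval 1213 to 1667), and with 116 UMIs or 1425 CPM (1177 to 1709) in MeOH-fixed ones. It was detected in 16 of 18 fresh cells, with a median of 5 UMIs and at most 28, and in 25 of 29 MeOH-fixed cells, with a median of 2 and at most 10. The UMIs per cell overlapped over the whole range of the MeOH-fixed cells, and the 6 highest values were in fresh cells. In nIPCs and neuroblasts it was counted at 33.7 CPM (12.4 to 73.3) in fresh and 170 CPM (94.9 to 280) in MeOH-fixed cells, below the interval of astrocytes and RGLs, and 1 MeOH-fixed cell held 10 of the 15 UMIs. These levels overlapped those of the identities that followed, such as MeOH-fixed microglia at 136 CPM (16.4 to 490, 2 UMIs in 1 cell), so that the second place was not resolved. The identities other than these and astrocytes and RGLs held 11 UMIs in all. No UMI of Hopx was found in the 15 oligodendrocyte precursor cells (OPCs), which allows up to 30.4 CPM.

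Sox9, a factor of gliogenesis, reached 1019 CPM (840 to 1226, 113 UMIs) in fresh and 933 CPM (735 to 1168, 76 UMIs) in MeOH-fixed astrocytes and RGLs. It was detected in 16 of 18 and 23 of 29 of these cells, with a median of 5 and 2 UMIs and a highest value of 19 and 14. The ranges overlapped. Elsewhere it stayed at or below 113 CPM in every identity of either library, and in nIPCs and neuroblasts it was detected in 8 of 16 fresh and 4 of 21 MeOH-fixed cells, mostly with 1 or 2 UMIs. Its level there in both libraries together, 82.5 CPM (51.7 to 125), was not distinguishable from the 81.7 CPM (26.5 to 191) of microglia, which are not known for expressing it.

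Sox2 was shared between astrocytes and RGLs and OPCs. In fresh cells it was counted at 586 CPM (452 to 747, 65 UMIs) in astrocytes and RGLs and at 448 CPM (284 to 672, 23 UMIs) in OPCs, and in MeOH-fixed cells at 442 CPM (310 to 612, 36 UMIs) and 359 CPM (209 to 575, 17 UMIs). The intervals of these 2 identities overlapped in both libraries, so that their order was not resolved. Sox2 was detected in 14 of 18 fresh and 16 of 29 MeOH-fixed astrocytes and RGLs, with at most 12 and 5 UMIs, and in 4 of 5 fresh and 7 of 10 MeOH-fixed OPCs, with at most 10 and 5. The nIPCs and neuroblasts followed with 78.6 CPM (43.0 to 132) in fresh and 158 CPM (86.5 to 266) in MeOH-fixed cells. In MeOH-fixed cells this interval overlapped that of OPCs, and 2 cells held 8 and 5 of the 14 UMIs. No Sox2 UMI was found in microglia or endothelial cells.

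Id4 was counted at 487 CPM (366 to 635, 54 UMIs) in fresh and 467 CPM (330 to 640, 38 UMIs) in MeOH-fixed astrocytes and RGLs, in 15 of 18 and 15 of 29 cells, with at most 8 UMIs in either library. Its second level was in MeOH-fixed mature neurons, at 81.4 CPM (32.7 to 168, 7 UMIs), where a single cell of 19461 UMIs held 5 of the 7. That cell was the deepest of its identity and also held 2 UMIs of Hopx and 1 each of Sox2 and Sox9.

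Id3, the other inhibitor, had its highest level in endothelial cells in both libraries. It was counted there at 513 CPM (246 to 944, 10 UMIs) in fresh and 436 CPM (199 to 827, 9 UMIs) in MeOH-fixed cells, and in astrocytes and RGLs at 225 CPM (146 to 333, 25 UMIs) and 356 CPM (238 to 511, 29 UMIs). The intervals overlapped, so that neither identity was shown to be higher. Id3 was detected in 8 of 18 fresh and 13 of 29 MeOH-fixed astrocytes and RGLs, and in 3 of 6 and 4 of 8 endothelial cells. The other 6 identities held 2 of its 75 UMIs.

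Hes5, the Notch target, was sparse, with 13 UMIs in fresh (117 CPM, interval 62.4 to 200) and 8 in MeOH-fixed astrocytes and RGLs (98.2 CPM, 42.4 to 194). It was detected in 6 cells of each library, with at most 4 and 3 UMIs. OPCs held 3 UMIs in each library, at 58.4 CPM (12.04 to 171) in fresh and 63.3 CPM (13.1 to 185) in MeOH-fixed cells, and the intervals overlapped those of astrocytes and RGLs. All 5 UMIs in nIPCs and neuroblasts were in 1 MeOH-fixed cell. Neurons, oligodendrocytes, microglia and endothelial cells held none.

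Among the filaments, Gfap was counted at 433 CPM (319 to 574, 48 UMIs) in fresh and 233 CPM (140 to 364, 19 UMIs) in MeOH-fixed astrocytes and RGLs. It was detected in 12 of 18 fresh and 13 of 29 MeOH-fixed cells. A single fresh cell held 17 of the 48 UMIs, the next highest fresh cells held 7, and no MeOH-fixed cell held more than 4. All other identities together held 6 UMIs of Gfap.

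Nes was not detected in astrocytes and RGLs. The 0 UMIs in 190294 allow up to 15.6 CPM, or up to 27.0 CPM in fresh and 36.8 CPM in MeOH-fixed cells, and 0 of 47 cells allows a share with a UMI of up to 6.38%, each taken as the limit of 3 counts. Of its 22 UMIs, 15 (68.2%, interval 45.1 to 86.1%) were in endothelial cells and 6 in nIPCs and neuroblasts. In endothelial cells Nes was counted with 14 UMIs in 4 of 6 fresh cells (719 CPM, 393 to 1206) and with 1 UMI in 8 MeOH-fixed cells (48.4 CPM, 1.23 to 270), a log2 ratio of -3.89 (-9.29 to -1.18). The MeOH-fixed level overlapped that of nIPCs and neuroblasts (33.9 CPM, 6.99 to 99.1). A single fresh cell held 8 of the 14 UMIs, and without it the log2 ratio was -2.84. The endothelial identity was not uniform: 2 of its fresh and 2 of its MeOH-fixed cells held the 117 and 95 UMIs counted there for the list of mural and meningeal markers. Of that list, Col1a1 and Dcn were at 0 in the endothelial cells of both libraries. The fresh cell with 56 UMIs of Acta2, the actin of smooth muscle, held none of Cldn5, Flt1 and Pecam1, and held 3 UMIs of Nes and 3 of Vim.

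Vim was counted in endothelial cells at 462 CPM (211 to 877, 9 UMIs) in fresh and 871 CPM (516 to 1377, 18 UMIs) in MeOH-fixed cells, in 3 of 6 and 6 of 8 cells. In astrocytes and RGLs it was counted at 144 CPM (82.4 to 234, 16 UMIs) in 7 of 18 fresh cells and at 61.4 CPM (19.9 to 143, 5 UMIs) in 3 of 29 MeOH-fixed cells. The intervals of the 2 identities overlapped in fresh cells, where their order was not resolved, and not in MeOH-fixed cells. In nIPCs and neuroblasts 1 fresh cell held 8 of 10 and 1 MeOH-fixed cell 17 of 22 UMIs. Neither oligodendrocytes nor microglia held a UMI of Vim.

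**Figure D2:**
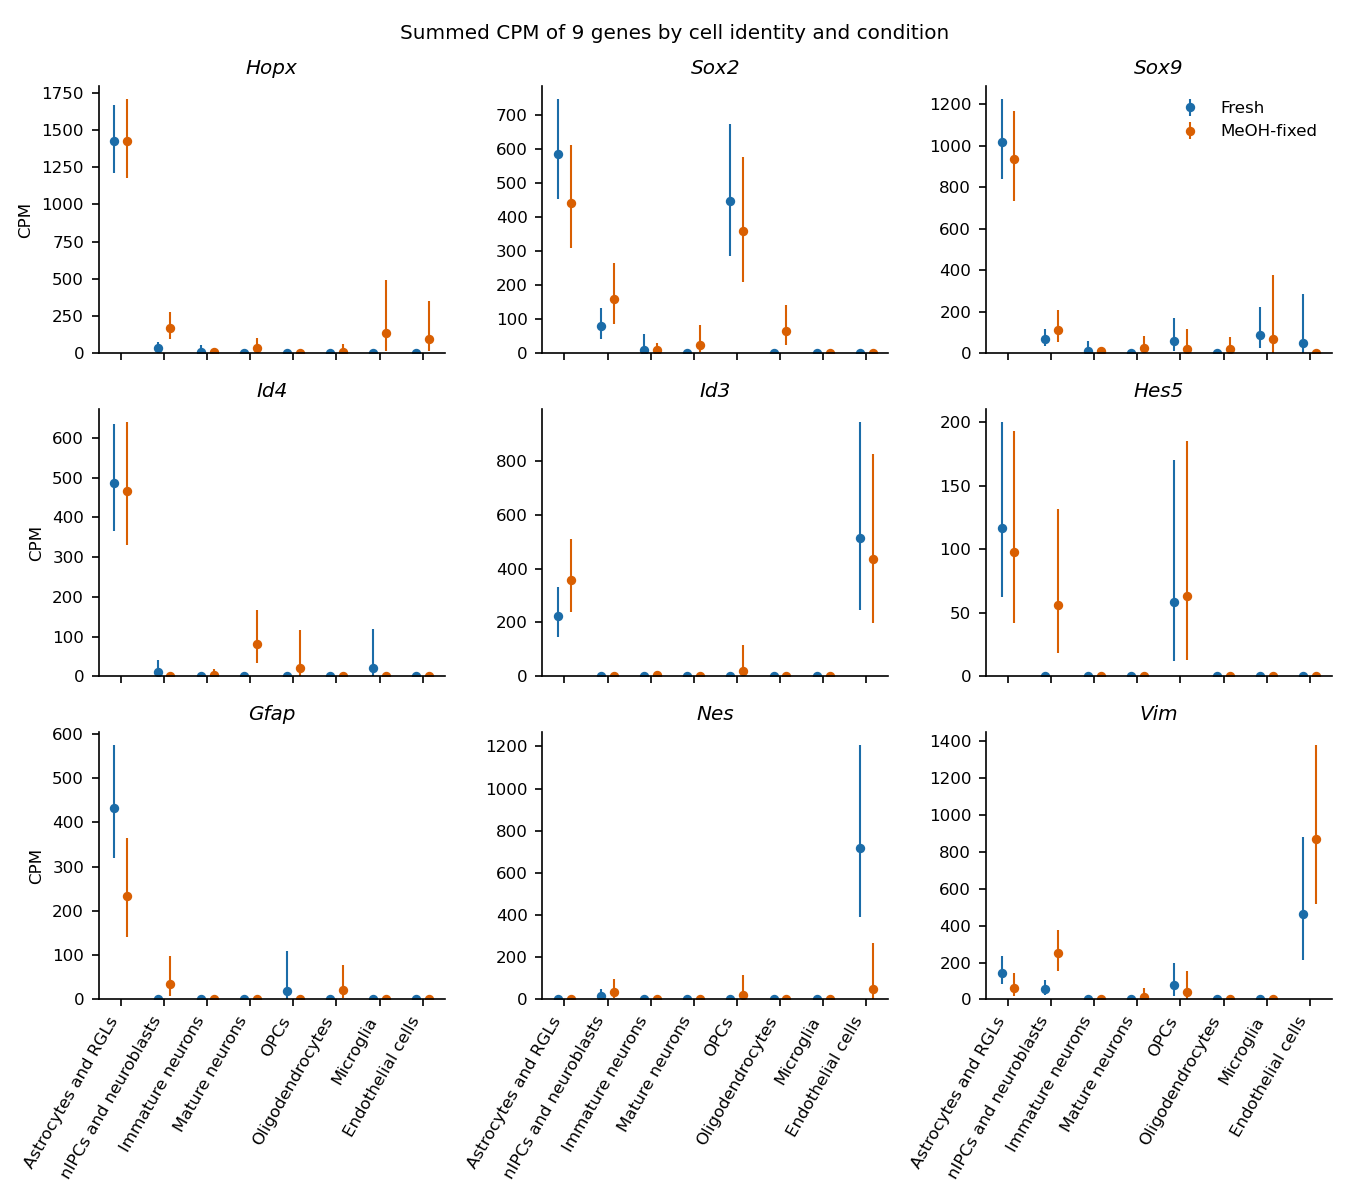
Level of each gene (CPM of summed counts, linear axes that differ between panels) in the 8 cell identities, for fresh (blue) and MeOH-fixed cells (orange), with exact 95% Poisson intervals and with a point at 0 without interval where no UMI was counted. Hopx, Sox9, Id4 and Gfap stand out in astrocytes and RGLs, Sox2 in astrocytes and RGLs and in OPCs, Nes in fresh endothelial cells and Vim in MeOH-fixed endothelial cells.

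Microglia and immature neurons are not known for expressing these genes. Whether their counts are free RNA, doublets or low expression was not tested. Of the 17 microglia, with a median of 2470 UMIs, 12 held no UMI of the 9 genes, and no cell held more than 1 of the genes. Of the 30 immature neurons, with a median of 11812 UMIs, 20 held none. By contrast, 46 of the 47 astrocytes and RGLs, with a median of 3150 UMIs, held at least 1 of the genes and 43 held at least 3. When each cell was thinned to 800 UMIs, the mean number of the 9 genes expected per cell was 2.18 in astrocytes and RGLs, 0.920 in endothelial cells, 0.552 in OPCs, 0.248 in nIPCs and neuroblasts, 0.0993 in microglia and 0.0461 in immature neurons.

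Within astrocytes and RGLs the genes were read out together in single cells. A fresh cell held a median of 31 UMIs of the 9 genes (3 to 65) and a MeOH-fixed cell a median of 11 (0 to 36). The median number of genes detected was 5.5 in fresh cells (quartiles 5 and 6, range 1 to 7) and 4 in MeOH-fixed cells (quartiles 3 and 5, range 0 to 7), and no cell held 8 or 9. The fresh cells were deeper, with a median of 5830 UMIs against 2196. After thinning to 800 UMIs the median expected number was 2.51 for fresh and 2.15 for MeOH-fixed cells, and the ranges of 0.719 to 3.63 and 0 to 3.62 overlapped almost fully. As a proportion of each cell's transcripts, the 9 genes took a median of 4440 CPM in fresh (1145 to 8730) and 3727 CPM in MeOH-fixed cells (0 to 7202). The MeOH-fixed cell without any of the 9 genes had 1161 UMIs, near the lower end of its group.

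**Figure D3:**
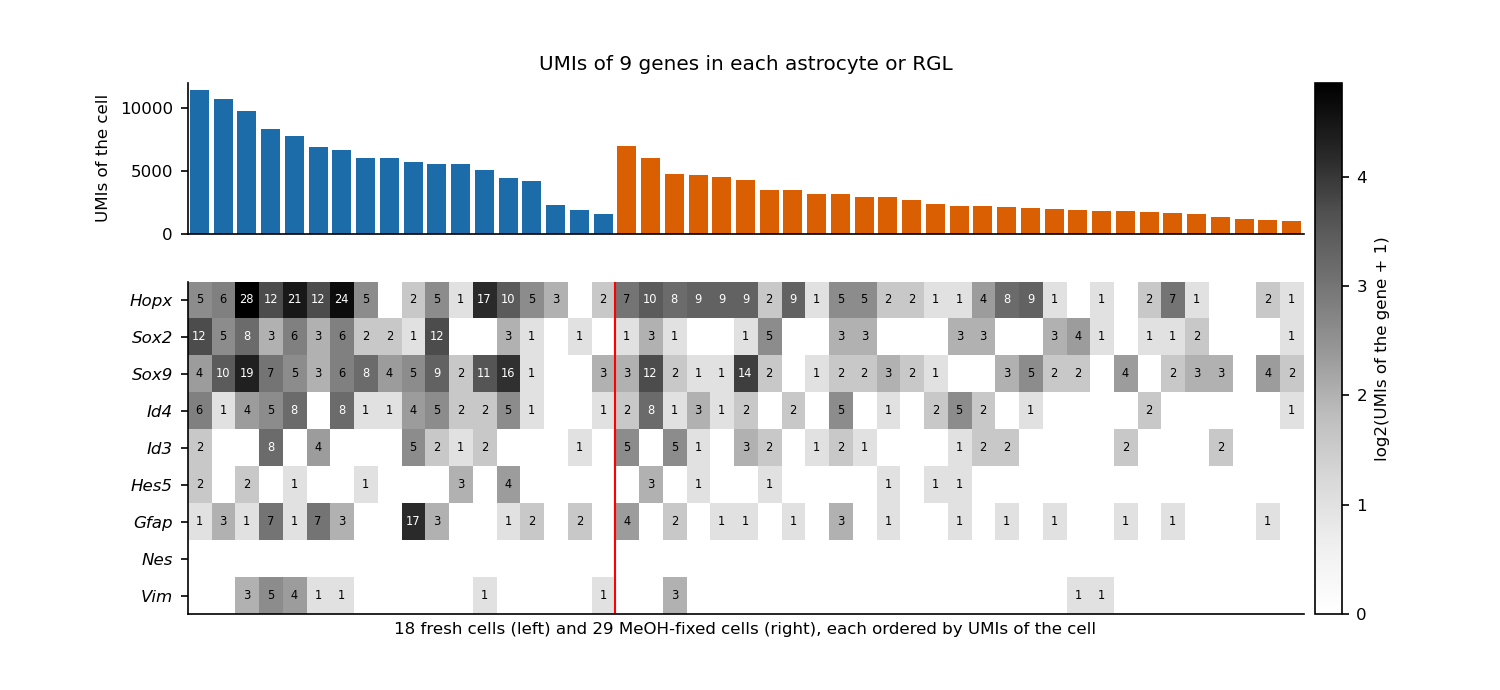
UMIs of the 9 genes in each of the 18 fresh and 29 MeOH-fixed astrocytes and RGLs (lower panel, numbers are UMIs and shading is log2(UMIs + 1)) below the UMIs of the same cell (upper panel). Cells are ordered by UMIs within each condition, Nes is empty in all 47 cells, and the genes are filled in more often in deeper cells.

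**Figure D4:**
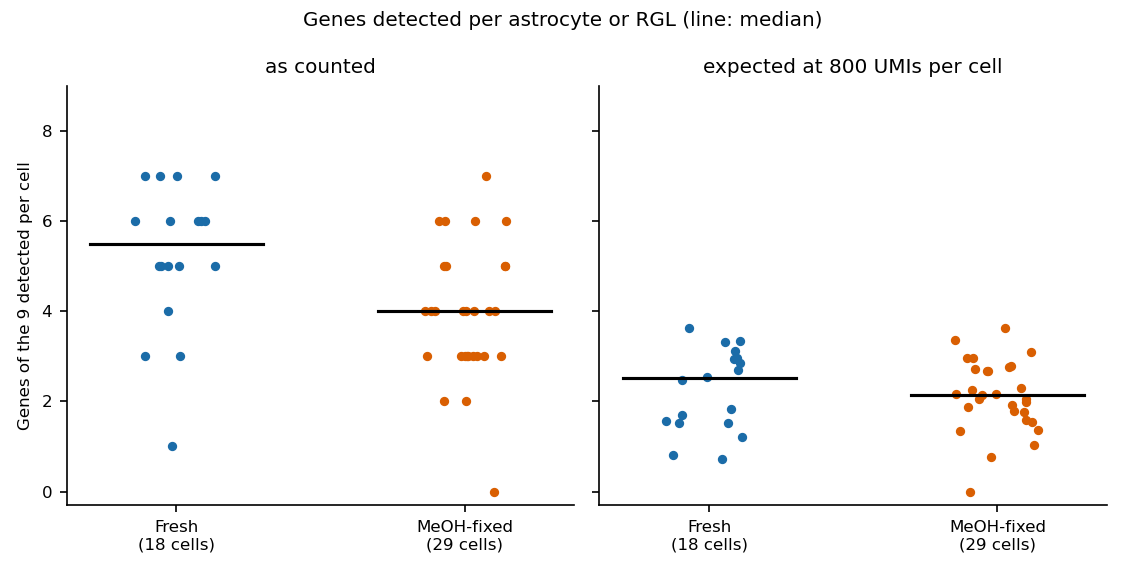
Number of the 9 genes detected in each astrocyte or RGL as counted (left) and after thinning each cell to 800 UMIs, as an expectation (right), with 1 point per cell, random horizontal spread and the median as a line. The medians are 5.5 and 4 as counted and 2.51 and 2.15 after thinning.

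Hopx and Sox9 were detected together in 35 of 47 cells (74.5%, interval 59.7 to 86.1%), 15 of 18 fresh and 20 of 29 MeOH-fixed. Hopx, Sox2 and Sox9 were found in the same cell in 12 fresh and 11 MeOH-fixed cells, and these 3 with Id4 in 11 fresh (61.1%, interval 35.8 to 82.7%) and 6 MeOH-fixed cells (20.7%, 7.99 to 39.7%). Cells with all 4 genes had a median of 6026 UMIs, against 3150 for the whole identity, so that depth moved with joint detection. The part of depth in it was not tested further. Only 1 cell, the MeOH-fixed one without any of the 9 genes, held none of Hopx, Sox2 and Sox9.

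Id4 was detected in 29 of the 41 cells with Hopx and in 1 of the 6 cells without it, with median depths of 3507 and 1822 UMIs for the cells with and without Hopx. All 12 cells with Hes5 also held Hopx, 11 of them Id4 and 11 Sox9, and the cells with both Hes5 and Hopx had a median of 5090 UMIs against 3120 for those with Hopx alone. Gfap was found with both Hopx and Sox9 in 21 cells. Vim was detected in 10 cells, 9 of them with Hopx, and Gfap and Vim together in 6 cells, 5 fresh and 1 MeOH-fixed, with a median of 7319 UMIs. Id3 was detected in 18 of 41 cells with Hopx and in 3 of 6 without, and in 13 of 30 cells with Id4 and 8 of 17 without.

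Some astrocyte genes were detected in nearly every cell of the identity and others in fewer. S100b was detected in 11 of 18 fresh and 17 of 29 MeOH-fixed cells. The glutamate transporters Slc1a2 and Slc1a3 were detected in all 47 cells and Aldoc in 46, and every cell with Hopx held Slc1a2 and Slc1a3. Aqp4, the water channel of mature astrocytes, was detected in 32 of the 41 cells with Hopx and in 4 of the 6 without. Of genes linked to RGLs, Fabp7, a fatty acid binding protein of radial glia, was detected in 28 cells, 10 fresh and 18 MeOH-fixed, and in 26 of the 41 with Hopx. Tfap2c was detected in 1 cell, and Lpar1 and Thbs4 in 3 cells each, all of them fresh. All 3 cells with Lpar1 held Hopx, Sox2, Sox9, Id4, Gfap and Vim and had a median of 7782 UMIs. Of 13 proliferation genes, Mki67 and Top2a gave 1 UMI each in the 47 cells and Pcna 15.

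Some genes of the neuron marker lists were counted in most of these cells. The 7 immature neuron markers summed to 550 CPM in fresh and 442 CPM in MeOH-fixed cells, in 15 of 18 and 21 of 29 cells (range per cell 0 to 3419 and 0 to 2779), against 1640 and 2066 CPM in immature neurons. Gda, Rbm24 and Rasgrf2 were at 0 in both libraries, and Dsp and Rbfox3 in fresh cells. The same sum was 1289 and 1395 CPM in OPCs, so that it is not particular to neurons. The 7 mature neuron markers summed to 306 and 393 CPM (0 to 1310 and 0 to 2532), with Mfsd4 at 0 in both libraries. In mature neurons they summed to 70.2 CPM in the 2 fresh cells and 2303 CPM in the MeOH-fixed cells. The endothelial markers Esam, Cldn5, Pecam1, Flt1 and Cdh5 were at 0 in all 47 cells, and Prom1, which RGLs also express, gave 8 UMIs. Eomes and Dcx, which define nIPCs and neuroblasts, were at 0 in both libraries, and the OPC marker Pdgfra likewise. The 5 oligodendrocyte markers summed to 189 CPM in fresh and 405 CPM in MeOH-fixed cells (range per cell 0 to 698 and 0 to 2229), and the 4 OPC markers to 162 and 307 CPM (0 to 465 and 0 to 4811). Their part in the values of the 9 genes was not tested.

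Between the libraries, the 9 genes were lower in MeOH-fixed than in fresh cells when all filtered cells were summed, and close to each other within astrocytes and RGLs. Over all cells the genes took 615 fresh and 494 MeOH-fixed UMIs, and the log2 ratio of MeOH-fixed over fresh CPM was -0.76 (-0.93 to -0.58). Single log2 ratios ran from -2.21 (Nes) to -0.14 (Vim). The median of all 10794 genes with at least 10 UMIs was 0.076, with quartiles of -0.48 and 0.59. The 9 ratios are not separate observations, since 73.9% of the UMIs of these genes lay in 1 identity. In astrocytes and RGLs the 9 genes took 492 and 327 UMIs, a log2 ratio of -0.14 (-0.35 to 0.061), and in the other cells together 123 and 167 UMIs, a log2 ratio of -0.16 (-0.50 to 0.19). Astrocytes and RGLs made up 28.1% of fresh and 22.0% of MeOH-fixed cells and held 20.5% and 11.1% of the UMIs, while immature neurons held 17.99% and 41.4%. In a sum over all cells, fewer cells of a type and less RNA per cell cannot be told apart. With equal weight for each of the 8 identities the log2 ratio of the sum was 0.022.

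A gene was counted as lower or higher when its CPM differed over 2-fold, among genes with at least 10 UMIs. Over all cells 2 of the 9 genes were lower, Nes at -2.21 (-4.00 to -0.71) and Gfap at -1.47 (-2.24 to -0.74), against 12% of 10794 genes, and 0 were higher, against 12.5%. The median of the 9 log2 ratios was -0.72, against 0.076 for all genes. In astrocytes and RGLs 8 of the 9 genes reached 10 UMIs, all but Nes. There 1 was lower, Vim at -1.23 (-3.04 to 0.28), against 16.2% of 2947 genes, and 0 were higher, against 14.7%. The median of the 8 was -0.19, against 0.00038 for all genes.

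The ratios of single genes in astrocytes and RGLs are given with their intervals, which were wide for genes with few UMIs. Hopx had a log2 ratio of -0.0017 (-0.36 to 0.35), Id4 of -0.061 (-0.70 to 0.56), Sox9 of -0.13 (-0.57 to 0.31), Hes5 of -0.25 (-1.73 to 1.13) and Sox2 of -0.41 (-1.04 to 0.20). Id3 was the only one above 0, at 0.66 (-0.16 to 1.49). Gfap, at -0.89 (-1.74 to -0.098), had an interval below 0. Without the cell richest in Gfap of each library its ratio was -0.55, and in cells with at most 25% mitochondrial counts -0.41. The filaments together gave 64 UMIs in fresh cells and 24 after MeOH fixation, for a log2 ratio of -0.97 (-1.71 to -0.27). Without the fresh cell richest in Gfap this ratio was -0.60, and without the cell richest in filament UMIs of each library it was -0.85. The transcription factors Hopx, Sox2 and Sox9 together had a ratio of -0.11 (-0.36 to 0.13), and Id4, Id3 and Hes5 together one of 0.15 (-0.31 to 0.61). Mitochondrial counts took a median of 20.5% in these fresh cells and 16.8% in the MeOH-fixed ones, and their part in the ratios was not tested beyond the values given.

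**Figure D5:**
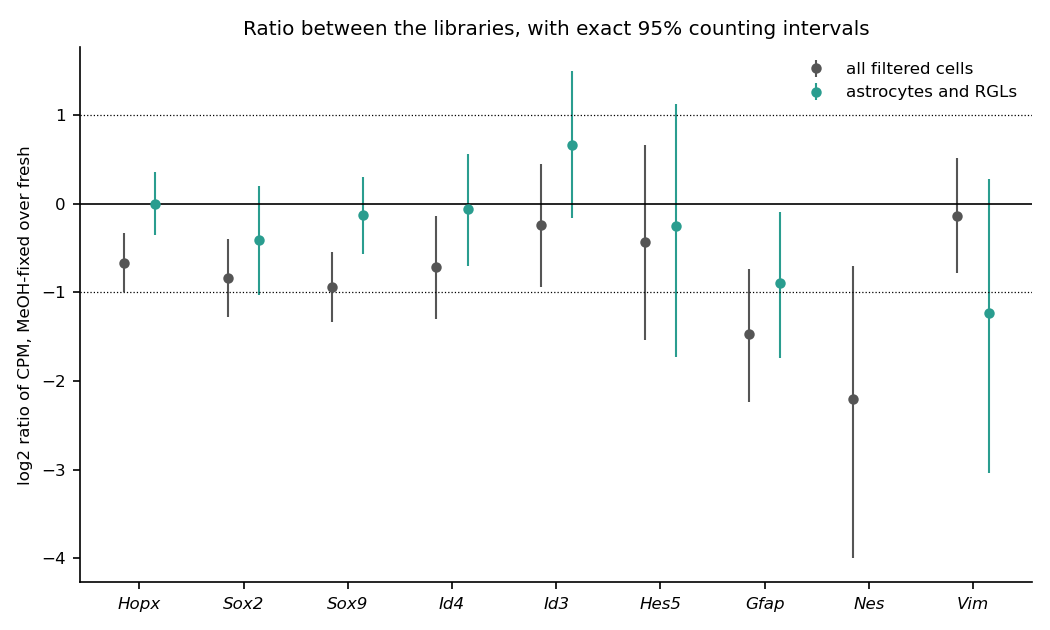
Log2 ratio of CPM, MeOH-fixed over fresh, for each gene over all filtered cells (grey) and within astrocytes and RGLs (green), with exact 95% intervals that cover counting error and dotted lines at 2-fold. Nes has no ratio in astrocytes and RGLs, where it was not counted, and the green points lie nearer to 0 than the grey ones for Hopx, Sox2, Sox9, Id4, Hes5 and Gfap but farther from 0 for Id3 and Vim.

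In nIPCs and neuroblasts the sum was higher in MeOH-fixed cells, where marker levels of the identity differed too. The 7 nIPC and neuroblast markers summed to 8337 CPM in fresh and 5375 CPM after fixation, the immature neuron markers to 1884 and 859 CPM, and the 4 astrocyte and RGL markers to 134.8 and 418 CPM. Their part in the result was not tested. The 9 genes took 47 UMIs in the 16 fresh cells and 72 in the 21 MeOH-fixed ones, and the log2 ratio was 1.63 (1.07 to 2.19), with Hopx at 2.33 (0.88 to 3.98, from 6 and 15 UMIs) and Vim at 2.15 (1.01 to 3.39, from 10 and 22 UMIs). The ratio of the sum rested largely on 1 MeOH-fixed cell of 12604 UMIs with 45 of the 72. This cell held 17 UMIs of Vim, 10 of Hopx, 8 of Sox2, 6 of Sox9, 2 of Gfap and 2 of Nes. It also held 34 UMIs of Ccnd2, 14 of Mki67 and 16 of Slc1a3, and none of Dcx, Aqp4 or Aldoc. Without this cell the log2 ratio of the sum was 0.44, that of Hopx 0.97 and that of Vim 0.23. When the cell richest in each measure was left out of both libraries, the sum was 0.77, Hopx 1.44 and Vim 2.46. The second cell of this kind was a MeOH-fixed one of 4922 UMIs with 5 of the genes (Sox2 5, Hes5 5, Hopx 4, Sox9 2 and Vim 1 UMIs) and 13 UMIs of Ccnd2 and 4 of Eomes. Of the 21 MeOH-fixed cells 12 held none of the 9 genes, against 1 of 16 fresh cells, at a median depth of 3873 and 11469 UMIs.

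The related genes were taken from lists, and their counts stand beside 16.2% lower and 14.7% higher of all genes in astrocytes and RGLs. Of 19 genes of the Notch pathway, 6 reached 10 UMIs in astrocytes and RGLs, with 1 lower and 1 higher in MeOH-fixed cells. The receptor Notch1 was counted with 22 UMIs in 11 fresh and 6 UMIs in 5 MeOH-fixed cells, with a ratio of -1.43 (-3.02 to -0.082), and Dner, a membrane protein reported to bind Notch, with 8 and 27 UMIs, a ratio of 2.201 (1.02 to 3.55) and the most UMIs of the list. The ligands Dll1, Dll3, Dll4 and Jag2 were at 0 in the 47 cells, and Hes1 gave 9 of its 87 UMIs there. Over all cells, where 12% of all genes were lower and 12.5% higher, 16 of the 19 reached 10 UMIs, 8 lower and 1 higher, with a median log2 ratio of -1.01 against 0.076 for all genes.

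Of 17 counted genes of the BMP pathway and other Id genes, 5 reached 10 UMIs in astrocytes and RGLs, with 0 lower and 1 higher, the receptor Bmpr1a at 1.03 (-0.38 to 2.53, 8 and 12 UMIs). Id2, the relative of Id3 and Id4 with the most UMIs, was counted at 586 CPM in fresh and 970 CPM in MeOH-fixed cells, with a ratio of 0.73 (0.24 to 1.22), and only 36.6% of its UMIs lay in this identity. Id1 gave 6 of its 37 UMIs there, and the ligand Bmp4 3 of 78.

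Other Sox genes were sparse in astrocytes and RGLs: 6 of 11 reached 10 UMIs, 2 lower and 1 higher. The oligodendroglial factor Sox10 had the most UMIs, 16 of its 478, while Sox11, a factor of neuroblasts, gave 4 of its 868. Sox6 was counted with 12 UMIs in fresh and none in MeOH-fixed cells. Sox1 and Sox21 gave 15 UMIs each.

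Of 24 other RGL genes that were counted, 11 reached 10 UMIs, with 2 lower and 0 higher in MeOH-fixed cells and a median log2 ratio of 0.017. The Hedgehog effector Gli3 was lower, at -1.14 (-2.95 to 0.39, 15 and 5 UMIs), and the matrix protein Tnc was counted with 11 UMIs in fresh and none in MeOH-fixed cells. Slc1a3, the glutamate transporter with the most UMIs of the list, was at 5685 CPM in fresh and 5574 CPM in MeOH-fixed cells, with a ratio of -0.029 (-0.20 to 0.15). Of 11 astrocyte genes all reached 10 UMIs, with 0 lower and 1 higher, Aqp4 at 776 and 1598 CPM, a ratio of 1.04 (0.64 to 1.45). Slc1a2, the most counted, had a ratio of 0.039 (-0.085 to 0.18). Among the other intermediate filament genes Plec alone reached 10 UMIs (13 UMIs), and of the proliferation genes Pcna alone (12 and 3 UMIs, a ratio of -1.55). Over all cells, 8 of 12 proliferation genes were higher and 1 lower (median 1.08), and 3 of 8 other filament genes higher and 0 lower (median 0.69). There 4 of 11 other Sox genes were lower and 0 higher (median -0.80), 5 of 17 other RGL genes lower and 1 higher (-0.66), 2 of 11 astrocyte genes lower and 0 higher (-0.34), and 1 of 14 BMP and Id genes lower and 3 higher (-0.16). Among nIPCs and neuroblasts, 1 MeOH-fixed cell held 14 UMIs of Mki67. Another held 10 of Mki67 and 13 of Top2a. How far such single cells carried the ratios of the proliferation genes was not tested.

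The likeness of patterns was measured as Pearson's r of log2(CPM + 10) over 14 groups of identity and condition with at least 5 cells, among 5099 genes with at least 50 UMIs. It is a description, since groups of 1 condition share a library and groups of 1 identity share the annotation. The genes most like Hopx were Cbs (0.90), Mt2 (0.89) and Aqp4 (0.89), those most like Sox9 were Slc1a3 (0.91), Fgfr3 (0.87) and Mlc1 (0.86), and those most like Gfap were Mlc1 (0.95), Nkain4 (0.95) and Lcat (0.93). Id4 was most like Hsd11b1 (0.95), Grin2c (0.95) and Scara3 (0.93). Pcdh10 (0.95) and Ptprz1 (0.95) were among the genes most like Sox2. Id3 was most like Prelp (0.93), Cyp2d22 (0.93) and Slco1c1 (0.92), and Vim was most like Utrn (0.89), Ptprg (0.87) and Rgs12 (0.86). Among the genes themselves, Sox9 and Gfap were the most alike (0.85), and Id4 and Vim the least (0.058). Id3 and Vim, both counted in endothelial cells, reached 0.71.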

How the data were processed

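The authors mapped the reads of the SORT-seq libraries to GRCm38 with STAR and removed duplicates by UMI. Per the submitters' notes, R 4.2.0 and Seurat 4.1.0 were also used. The deposited values are expected counts, that is UMI counts to which the authors applied a correction for repeated use of the 4096 possible UMIs. The correction raised the sum by 1.15%. The counts were not rounded, because no count model was fitted: inverting the correction gave the whole UMIs (largest distance from a whole number 3.64e-12). Cells and identities are those the authors kept and annotated. Doublets were not called, and the name of every deposited column was mapped to its library.

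CPM were taken from deposited counts summed over cells and divided by their total, with exact Poisson intervals of the UMIs. Shares have exact Clopper-Pearson intervals, and ratios the exact interval of UMIs given their sum, all at 95% and for counting error only. Where no UMI was found, the limit of a level or of a share of cells is that of 3 counts. Thinning to 800 UMIs was computed as an expectation. The 2 libraries have 24 well barcodes in common among their filtered cells, which come from different plates. Named are the 9 genes, the most counted gene of each list, listed genes with at least 20 UMIs in astrocytes and RGLs that differed over 2-fold, and the 3 genes most like each of the 9 with at least 50 UMIs. Fabp7, Lpar1, Thbs4, Tfap2c, Tnc, Sox6 and the other genes named by their UMIs were chosen after their values were seen. A few results named by these rules are not reported here. The genes and lists were chosen with earlier results of these data known. Positions are from GENCODE vM21 and windows from RefSeq (GRCm38.p6), and no protein sequence was used here. The counting of genes past 2-fold was tried on simulated data with counting error alone, which leave out the spread between cells. Values were computed in Python 3.11.15 with pandas 2.3.3, numpy 2.4.6 and scipy 1.17.1, and plots were drawn with matplotlib 3.10.9. Of the alternatives tried, 31 were planned, and others were added after seeing the data.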

Additional observations from a re-analysis of the deposited data

Results flagged for a closer look

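The barcodes that did not pass the authors' filters were not part of any comparison, and they held UMIs of the 9 genes above the limit that a count of 0 allows (3 counts). On the fresh plate 320 such barcodes, with a median of 168 UMIs, held 67 UMIs of the 9 genes, and on the MeOH-fixed plate 252 barcodes, with a median of 192 UMIs, held 55. This was 473 CPM (367 to 601) and 653 CPM (492 to 850). They were spread over 39 fresh and 36 MeOH-fixed barcodes, of which 6 in each library held at least 2 of the genes and 3 fresh ones held 3. Sox9 (18 UMIs) and Hopx (13 UMIs) were counted most on the fresh plate, and Hopx (13), Sox2 (11) and Gfap (10 UMIs) on the MeOH-fixed plate. Nes was counted with 1 UMI on the fresh plate alone and Vim with 2 on the MeOH-fixed plate alone. Whether these barcodes were cells of low content or wells with free RNA was not tested. According to the paper, some wells were left without a cell as controls, and their barcodes were not set apart here.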

How the results depend on the processing

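The log2 ratio of the 9 genes over all cells, -0.76, was -0.50 as a mean of each cell's own CPM, -0.57 over all barcodes and 0.022, with the sign turned, when the 8 identities had equal weight; the cause was not tested. In astrocytes and RGLs the ratio of the sum kept its sign and stayed in its interval under all 5 alternatives (-0.21 to -0.11), and single genes stayed in their intervals in all 40 cases, though Hopx turned to 0.13 without its richest cells and Sox2 to 0.0041 as a mean of the cells' own CPM. At 1.5-fold in place of 2-fold, 6 genes were lower over all cells, and in astrocytes and RGLs 2 were lower and 1 higher; by the cells' own CPM 2 were lower there. The share of UMIs in astrocytes and RGLs, 73.9%, was 69.3% with at most 25% mitochondrial counts and 77.6% after thinning. The median number of genes detected was 2.51 in fresh and 2.15 in MeOH-fixed cells after thinning, and 4.5 and 2 when 2 UMIs were required. Alternatives for nIPCs and neuroblasts, endothelial cells and the filament sum were added after seeing the data: as a mean of the cells' own CPM, the sum in nIPCs and neuroblasts was 0.73 and Vim 0.98. With 1 library per condition no replicate could be left out. No paired analysis was possible because each condition is 1 library of its own pool of mice.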
